A study of Rattus norvegicus with 24 samples.

Results

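Slc16a7, Ldhb and Gcgr are 3 rat genes that deal with lactate and with the hormone glucagon, and their transcripts were followed through a diet and strain experiment in rat kidney. Slc16a7 encodes MCT2, a proton-linked carrier with high affinity for lactate and pyruvate. Ldhb encodes the heart-type subunit of lactate dehydrogenase, the enzyme that interconverts lactate and pyruvate. Gcgr encodes the glucagon receptor, which raises cyclic AMP through the stimulatory G protein. They are 3 of the 1561 probes that held a value on at least 1 array, and each was measured by 1 probe. The genes were picked with results of these data known, from the salt response of the SS strain, the strain difference on high salt and the difference between the strains in the salt response. The values in those contrasts are therefore given as a description, with no p-value, and any call named there is one of those that led to the choice.

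Kidney RNA was hybridised to 24 arrays of 2 colours that carried spotted cDNA. Strain 13 is the salt-sensitive SS rat with its chromosome 13 taken from another strain, and the SS rat is the unmodified parent, so all groups share the SS background. Rats of strain 13 on high salt (HS), strain 13 on low salt (LS), SS on HS and SS on LS were compared after 2 weeks. The title of the series names the renal medulla while the sample labels name the kidney. The labels used here give no age or sex of the rats.

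There were 4 comparisons, namely HS over LS in strain 13, HS over LS in SS, strain 13 over SS on HS, and strain 13 over SS on LS. Each had 3 replicates of 2 arrays, a forward array and a dye-swap array that carried the same RNAs with the dyes exchanged. Nothing in the labels ties a replicate to an animal of its own, so p-values here measure the spread among these replicates alone, and that spread may be technical. Values are log ratios as deposited. Their log base is not stated, so no folds are given. A ratio gives the difference between RNAs and not a level, so the tissue could not be checked by the level of its markers. The direction of the ratios is likely rather than certain. In favour, in the 13 titles that spell out the RNA of each dye, the dye that the labels give to channel 1 carries strain 13 or HS, on forward and dye-swap arrays alike, yet only 1 of those belongs to a diet array, and the opening words of all 24 put LS ahead of HS. A turn of every sign at once cannot be told apart from the direction used here. Arrays held values for 726 to 1402 probes. Of the 6 SS diet arrays, 5 have titles without a strain, and the title of the sixth opens like those of strain 13 although its channel text names SS. SS RNA on HS enters the diet comparison in SS as well as the comparison of the strains on HS, so these comparisons share samples.

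Lactate is a fuel as well as a product of glycolysis. In the renal medulla, where oxygen is scarce, glycolysis supplies much of the energy of the inner zone, while oxidative segments such as the thick ascending limb of the outer medulla can burn lactate. Lactate dehydrogenase tetramers rich in the Ldhb subunit are typical of tissues that oxidise lactate, and those rich in the Ldha subunit of tissues that release it. Glucagon is best known for raising hepatic glucose output, and in rat kidney its receptor is coupled to adenylyl cyclase in the thick ascending limb and parts of the distal nephron.

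The promoter regions of the 3 genes were read to see whether genes that share part of a pattern share sequence near their starts. None of the 3 lies on the substituted chromosome 13. The sequences come from RefSeq in the build GRCr8, which is a Brown Norway rat and neither of the strains studied. Each runs 5′ to 3′ on the strand of its gene, with 250 bases before the annotated start and 50 bases from it. Capitals mark matches, on either strand, to the cyclic AMP response half-site TGACG, the GC box GGGCGG, the hypoxia response core ACGTG or TGGAAA, the opening letters of the tonicity element. Slc16a7 is on the minus strand at chr7:63040349-63040648, Ldhb on the minus strand at chr4:177177359-177177658, and the first of the annotated Gcgr starts on the plus strand at chr10:106306553-106306852.
Slc16a7: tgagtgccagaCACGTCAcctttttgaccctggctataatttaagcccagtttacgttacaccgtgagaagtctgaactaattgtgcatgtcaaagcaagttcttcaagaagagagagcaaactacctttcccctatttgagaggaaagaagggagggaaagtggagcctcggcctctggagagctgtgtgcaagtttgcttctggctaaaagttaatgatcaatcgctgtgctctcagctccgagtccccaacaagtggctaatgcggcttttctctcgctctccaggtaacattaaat
Ldhb: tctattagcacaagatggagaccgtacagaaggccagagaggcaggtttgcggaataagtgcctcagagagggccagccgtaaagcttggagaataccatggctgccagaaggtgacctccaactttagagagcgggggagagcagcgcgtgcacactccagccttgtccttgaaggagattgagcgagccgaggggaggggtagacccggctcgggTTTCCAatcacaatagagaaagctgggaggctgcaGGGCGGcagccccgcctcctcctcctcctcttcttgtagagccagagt
Gcgr: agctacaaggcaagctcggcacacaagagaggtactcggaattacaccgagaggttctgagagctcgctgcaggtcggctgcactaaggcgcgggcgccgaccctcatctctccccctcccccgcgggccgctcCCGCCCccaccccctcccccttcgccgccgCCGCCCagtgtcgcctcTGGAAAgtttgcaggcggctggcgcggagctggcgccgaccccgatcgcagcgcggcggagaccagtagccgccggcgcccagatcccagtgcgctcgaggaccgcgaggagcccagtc

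The Slc16a7 window held the half-site and the hypoxia core on the opposite strand, overlapping each other, with first bases at -237 and -239 where the start is position 0.
Among 33469 promoter windows of the same length, 21.2% held TGACG and 19.2% held ACGTG. The Ldhb window held a GC box at position 2 and TGGAAA on the opposite strand at -33. The Gcgr window held GC boxes on the opposite strand at -116 and -86 and TGGAAA at -69. A GC box was present in 33.1% of all windows and TGGAAA in 22.7%. The palindromic element TGACGTCA, found in 1.83% of all windows, matched none of these sequences. GC content was 46.7% for Slc16a7, 58.0% for Ldhb and 71.0% for Gcgr, against a median of 51.7% over all windows. The Slc16a7 start lies 56.6 kb inside the 5′ end of the annotated gene. The window of the further Gcgr start held no match. No motif was thus shared by all 3 genes. Ldhb and Gcgr shared the GC box and TGGAAA. These matches describe letters only.

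The carrier gene Slc16a7 was lower on HS than on LS in SS rats and stayed near 0 in strain 13. In strain 13 its replicate log ratios of HS over LS were 0.19, 0.01 and -0.05, a mean of 0.05 ± 0.12 (SD, n = 3). In SS they were -0.27, -0.76 and -0.41, a mean of -0.48 ± 0.25 (SD, n = 3). All 3 SS replicates lay below all 3 strain 13 replicates, as was so for 7.14% of 1107 probes. The 5 SS arrays with a value were all below 0, from -0.76 to -0.13, and their dye-swap arrays alone gave a mean of -0.23. Of 1041 probes with at least 5 values in this comparison, 5.28% were below 0 on all of them. In strain 13, the 6 arrays ran from -0.18 to 0.4, on both sides of 0. The second SS replicate rests on its forward array alone, so a dye effect is not averaged out there.

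Between the strains, Slc16a7 changed sides with the diet. On HS the replicate log ratios of strain 13 over SS were 0.26, 0.39 and 0.40, a mean of 0.35 ± 0.08 (SD, n = 3). On LS they were -0.42, -0.30 and -0.03, a mean of -0.25 ± 0.20 (SD, n = 3). The gene was thus higher in strain 13 than in SS on HS and lower on LS, with all 6 HS arrays above 0 and all 5 LS arrays below 0. For comparison, 6.20% of 1193 probes were above 0 on every HS array and 5.17% of 948 were below 0 on every LS array, each with at least 5 values. The LS value depended on the arrays used. In the second LS replicate the forward array read -0.01 and the dye-swap array -0.58, and the third replicate had only a forward array, at -0.03. The dye-swap arrays alone gave -0.56 on LS, a shift beyond 1 SD of the replicates.

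Ldhb lay furthest from 0 between the strains on HS, the comparison whose call led to its choice. In strain 13 its replicate log ratios of HS over LS were 0.20, 0.07 and 0.02, a mean of 0.10 ± 0.09 (SD, n = 3) that did not pass the test (limma adjusted p = 0.709 over all probes tested). In SS they were -0.03, -0.02 and 0.14, a mean of 0.03 ± 0.09 (SD, n = 3). All 3 strain 13 replicates were above 0, while those of SS lay on both sides of it, and the replicates of the strains overlapped. The third SS replicate joins a forward array at 0.46 and a dye-swap array at -0.18.

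On HS the replicate log ratios of Ldhb in strain 13 over SS were 0.40, 0.51 and 0.25, a mean of 0.39 ± 0.13 (SD, n = 3). All 6 arrays were above 0, from 0.02 to 0.53, as in 6.20% of 1193 probes with at least 5 values. On LS the replicates were -0.08, 0.06 and 0.08, a mean of 0.02 ± 0.08 (SD, n = 3; limma adjusted p = 0.893). The lowest HS replicate lay above the highest LS replicate, as in 8.98% of 1047 probes. Ldhb thus read higher in strain 13 than in SS on HS, with LS replicates on both sides of 0. Its sign on LS turned under 4 of the 12 other settings tried. In the third LS replicate the forward array read 0.49 and the dye-swap array -0.33, the widest gap of the gene.

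Gcgr was lower on HS in SS rats and was the gene of the 3 furthest above 0 in strain 13 over SS on HS. In strain 13 its replicate log ratios of HS over LS were -0.06, 0.02 and -0.02, a mean of -0.02 ± 0.04 (SD, n = 3; limma adjusted p = 0.976). In SS they were -0.22, -0.58 and -0.50, a mean of -0.43 ± 0.19 (SD, n = 3). All 3 SS replicates lay below those of strain 13, as was so for 7.14% of 1107 probes. All 6 SS arrays were below 0, from -0.69 to -0.2, as were all arrays for 5.28% of 1041 probes with at least 5 values. The glucagon receptor transcript thus had the lowest replicate spread of the 3 genes in strain 13 and a separate, lower range in SS.

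On HS the replicate log ratios of Gcgr in strain 13 over SS were 0.50, 0.69 and 0.39, a mean of 0.52 ± 0.15 (SD, n = 3). On LS they were 0.32, 0.24 and 0.01, a mean of 0.19 ± 0.16 (SD, n = 3), which did not pass the test (limma adjusted p = 0.236). All 6 HS arrays were above 0, as in 6.20% of 1193 probes with at least 5 values, and 5 of 6 LS arrays were above 0. The HS and LS replicates did not overlap, because the lowest HS replicate read 0.39 and the highest LS replicate 0.32. The HS replicates lay above those on LS in 8.98% of 1047 probes. Unlike Slc16a7, Gcgr did not change sides with the diet. The titles of all 12 strain arrays carry extra text of unstated meaning that may mark a batch. Replicate 3 on HS and on LS share it, whereas replicates 1 and 2 on HS carry another text than those on LS, so in replicates 1 and 2 the text and the diet cannot be told apart. Replicate 3 was also the LS replicate nearest 0 for Slc16a7 and Gcgr. Within replicate 3 the HS value minus the LS value of these strain ratios was 0.43 for Slc16a7, 0.17 for Ldhb and 0.38 for Gcgr.

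**Figure D1:**
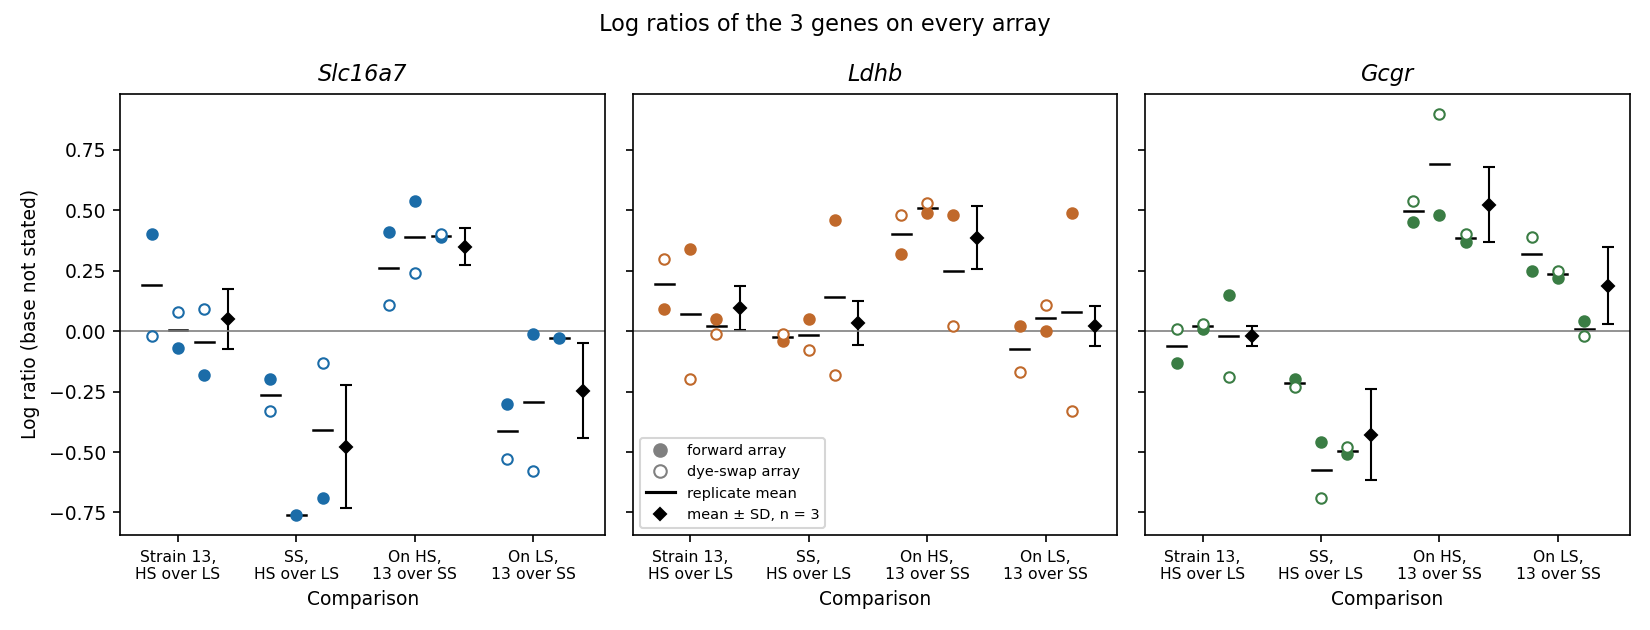
Log ratios of Slc16a7, Ldhb and Gcgr on the vertical axis (base not stated) in the 4 comparisons, with filled points for forward arrays, open points for dye-swap arrays, a bar for each replicate mean and a diamond with the mean ± SD of 3 replicates. Slc16a7 and Gcgr lie below 0 in the SS diet comparison and all 3 genes lie above 0 in strain 13 over SS on HS, while on LS Slc16a7 lies below 0 and Gcgr mostly above it.

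How often probes pass in these comparisons sets the scale. In the limma fit over all probes, 2.82% of 1310 probes passed in the SS diet comparison at an adjusted p below 0.05 (1.83% higher on HS and 0.992% lower), and Slc16a7 and Gcgr were among the lower ones. In the strain comparison on HS, 6.00% of 1350 probes passed (3.63% higher in strain 13 and 2.37% lower), with Ldhb and Gcgr among the higher ones. The count on HS was 81 probes, and 44 with the replicate block. Since the genes were chosen from these calls, nothing is read from the counts. In strain 13, 0 of 1287 probes passed between the diets (0%), while 119 had an unadjusted p below 0.05. On LS, 0 of 1229 passed between the strains (0%), while 268 had an unadjusted p below 0.05. In whole tissue, fewer cells of a type and less RNA per cell cannot be told apart.

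The difference between the strains in the salt response was available from separate sets of arrays. The diet arrays give the ratio of HS over LS in strain 13 minus that in SS, and the strain arrays give the ratio of strain 13 over SS on HS minus that on LS. Without error both would be equal. Both sets compare RNA of the same strains and diets, and some of their replicates deviate together or in opposite directions. The estimates are thus not independent, and a likeness between them is no second measurement on other rats. For Slc16a7 the diet arrays gave 0.46, 0.77 and 0.37 by replicate, a mean of 0.53 ± 0.21 (SD, n = 3). The strain arrays gave 0.68, 0.69 and 0.43, a mean of 0.60 ± 0.15 (SD, n = 3). The SDs overlapped, and the values differed by -0.07, diet arrays minus strain arrays. Over 1006 probes the median size of that gap was 0.0883, and 59.5% of probes had a wider gap than Slc16a7.

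Gcgr had a like result, with 0.16, 0.60 and 0.48 from the diet arrays, a mean of 0.41 ± 0.23 (SD, n = 3). The strain arrays gave 0.18, 0.46 and 0.38 for Gcgr, a mean of 0.34 ± 0.14 (SD, n = 3). The gap between the estimates was wider in 56.4% of probes than for Gcgr. Ldhb had the widest gap of the 3 genes. Its diet arrays gave 0.22, 0.09 and -0.12, a mean of 0.06 ± 0.17 (SD, n = 3), and its strain arrays 0.48, 0.46 and 0.17, a mean of 0.37 ± 0.17 (SD, n = 3). The Ldhb gap of -0.31 was exceeded in size by 3.88% of probes. Ldhb was chosen from its HS call, and the HS value enters the estimate of the strain arrays alone. Slc16a7 and Gcgr were chosen in part from the SS diet value, which enters the estimate of the diet arrays. Nothing is therefore read from the Ldhb gap or from the likeness of the estimates for Slc16a7 and Gcgr. The mean of both sets was 0.56 ± 0.17 for Slc16a7, 0.21 ± 0.17 for Ldhb and 0.37 ± 0.19 for Gcgr (SD, n = 3 each). Across all probes, 5 of 1164 passed for this difference (0.430%, with 0.258% higher), and Slc16a7 was one of them, as its choice required.

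**Figure D2:**
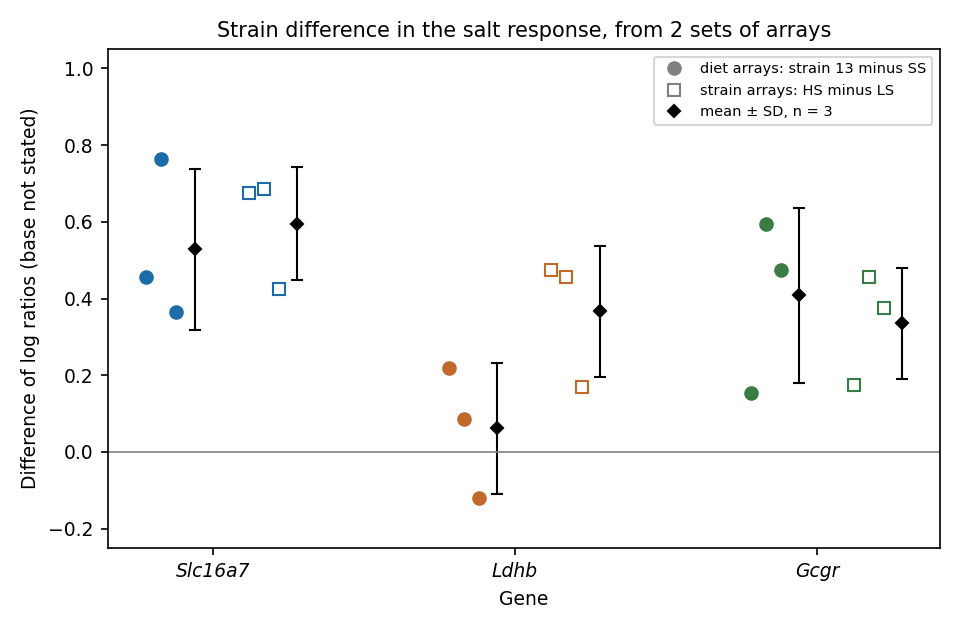
The strain difference in the salt response on the vertical axis (log ratio, base not stated), from the diet arrays (strain 13 minus SS) and from the strain arrays (HS minus LS), with a point for each replicate and the mean ± SD of 3. The diet and strain arrays average 0.53 and 0.60 for Slc16a7 and 0.41 and 0.34 for Gcgr. For Ldhb the diet arrays scatter around 0 and the strain arrays average 0.37.

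The forward and dye-swap arrays give the technical scatter of each probe. The median size of the forward minus dye-swap difference for Gcgr was 0.14 in the strain 13 diet comparison, 0.03 in SS, 0.09 on HS and 0.06 on LS. The medians over all probes were 0.27, 0.21, 0.33 and 0.26 in the same order, so by its medians Gcgr scattered less than the typical probe. Single Gcgr replicates differed by more, at 0.34 in strain 13 (replicate 3), 0.23 in SS and -0.42 on HS (replicate 2 in both). Slc16a7 had medians of 0.27, 0.35, 0.30 and 0.40, at or above the typical probe in all comparisons but the one on HS. Ldhb had medians of 0.21, 0.13, 0.16 and 0.19, but its replicate 3 differed by 0.64 in SS, 0.46 on HS and 0.82 on LS. By these medians Gcgr was the most repeatable of the 3 between dyes and Slc16a7 the least, in every comparison.

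Few other genes of lactate, glucose and glucagon biology passed the test. Across 46 such genes with values, chosen by function with earlier results of these data known, 0 of 37 tested passed in the strain 13 diet comparison (median log ratio 0.04, with 1 at an unadjusted p below 0.05). In SS, 1 of 39 rose on HS, 0 fell and 38 did not pass, a share near the 2.82% of all probes. The median there was 0.00, against -0.01 over all probes. An unadjusted p below 0.05 was seen for 4 of the 39, beside 255 of all 1310 probes. On HS, 1 of 41 was lower in strain 13, 0 higher and 40 did not pass, against 6.00% of all probes (median 0.06, against 0.02 over all probes). On HS 29 of the 41 were above 0, beside 739 of all 1350 probes, and 11 had an unadjusted p below 0.05, beside 312 of all. On LS, 0 of 36 passed, with 10 at an unadjusted p below 0.05, beside 268 of all 1229 probes. For the strain difference in the salt response 0 of 36 passed, with 4 at an unadjusted p below 0.05, beside 182 of all 1164 probes.

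Of the other carriers and chaperones, 3 had values, and 0 of them had an unadjusted p below 0.05 in limma in any comparison. Slc16a1, which encodes MCT1, the widespread carrier of lactate and pyruvate, had a log ratio of -0.18 ± 0.22 in strain 13 over SS on HS (SD, n = 3; limma adjusted p = 0.31), opposite in sign to Slc16a7. Its diet ratios were 0.16 ± 0.09 in strain 13 and 0.11 ± 0.23 in SS. Bsg, the chaperone that brings MCT1 to the membrane, had diet ratios of 0.13 ± 0.07 in strain 13 and 0.09 ± 0.19 in SS. Emb, the chaperone that partners MCT2, had 0.10 ± 0.09 in strain 13 and -0.00 ± 0.11 in SS. The lower Slc16a7 of SS rats on HS was therefore not accompanied by a passing change of its relative Slc16a1 or of either chaperone.

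Among the enzymes around lactate and pyruvate, 0 passed in any of the 4 comparisons, and 0 had an unadjusted p below 0.05 in limma. For the strain difference in the salt response, 0 of 4 tested passed. There 1 had an unadjusted p below 0.05 in limma, beside 182 of all 1164 probes. Ldha, the other common lactate dehydrogenase subunit, had 0.06 ± 0.15 in strain 13 over SS on HS (limma adjusted p = 0.73), beside 0.39 for Ldhb. On LS it had 0.16 ± 0.07 (limma adjusted p = 0.275), and its diet ratios were 0.10 in strain 13 and 0.03 in SS. The Ldha and Ldhb sequences are related, and cross-hybridisation between their probes was not tested. Pdk2, a kinase that switches off pyruvate dehydrogenase, lay between -0.06 and 0.04 in the 4 comparisons. Pdp1, the phosphatase that switches it on, had 0.01 on HS in 2 replicates. Pc, pyruvate carboxylase, read -0.32 ± 0.35 in strain 13 over SS on HS and -0.26 ± 0.28 on LS. Me1, malic enzyme, read 0.12 ± 0.03 on HS (limma adjusted p = 0.421) and -0.13 ± 0.17 on LS. Its diet ratios were -0.04 in strain 13 and -0.18 in SS.

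In the glucagon family, Glp1r moved against Gcgr in SS rats. Glp1r encodes the receptor of glucagon-like peptide-1, and its ratio of HS over LS rose in SS with replicates of 0.46, 0.54 and 0.40, a mean of 0.47 ± 0.07 (SD, n = 3; limma adjusted p = 0.0238). In strain 13 it had 0.18, 0.22 and 0.19, a mean of 0.19 ± 0.02 (limma adjusted p = 0.568), and in strain 13 over SS on HS 0.07 ± 0.17. All 3 SS replicates of Glp1r lay above all 3 of strain 13, but the strain difference in its salt response, at -0.09, did not pass (limma adjusted p = 0.677). That value averages estimates of opposite sign, -0.27 from the diet arrays and 0.09 from the strain arrays, where LS has 2 replicates. The call was lost without replicate 2 (limma adjusted p = 0.317), without replicate 3 (0.234), on dye-swap arrays alone (0.406) and with the SS group fitted alone (0.207), with values between 0.26 and 0.71 over all settings run. Dpp4, a peptidase that inactivates glucagon-like peptide-1, read -0.36 ± 0.34 in strain 13 over SS on HS (limma adjusted p = 0.162) and -0.44 ± 0.14 on LS.

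Among the remaining lists, Slc2a2 passed on HS. It encodes GLUT2, the glucose carrier of the proximal tubule, and its replicates in strain 13 over SS were -0.52, -0.33 and -0.26, a mean of -0.37 ± 0.13 (SD, n = 3; limma adjusted p = 0.0319). On LS it had -0.30 ± 0.08 (limma adjusted p = 0.105). The Slc2a2 call on HS was lost without any 1 of the 3 replicates (limma adjusted p between 0.104 and 0.168), with equal array spread (0.113), with the replicate block (0.0567) and with the group fitted alone (0.105). The forward arrays gave -0.02 and the dye-swap arrays -0.71, so the value rests on the dye-swap arrays. Hk1, hexokinase of the first step of glycolysis, had 0.30 ± 0.19 on HS (limma adjusted p = 0.0633), and Phkg2, a catalytic subunit of phosphorylase kinase, 0.25 ± 0.03 (limma adjusted p = 0.0892). Slc37a4, the glucose-6-phosphate carrier of the endoplasmic reticulum, had -0.30 ± 0.17 on HS. Gnb2, a G protein beta subunit, had 0.22 ± 0.13, and Prkar1a, a regulatory subunit of protein kinase A, 0.13 ± 0.05. Gyg1, the glycogen primer glycogenin, had 0.08 ± 0.05. The adenosine receptors Adora2b and Adora2a, which also raise cyclic AMP, had 0.37 ± 0.51 and 0.20 ± 0.31. None of these passed.

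**Figure D3:**
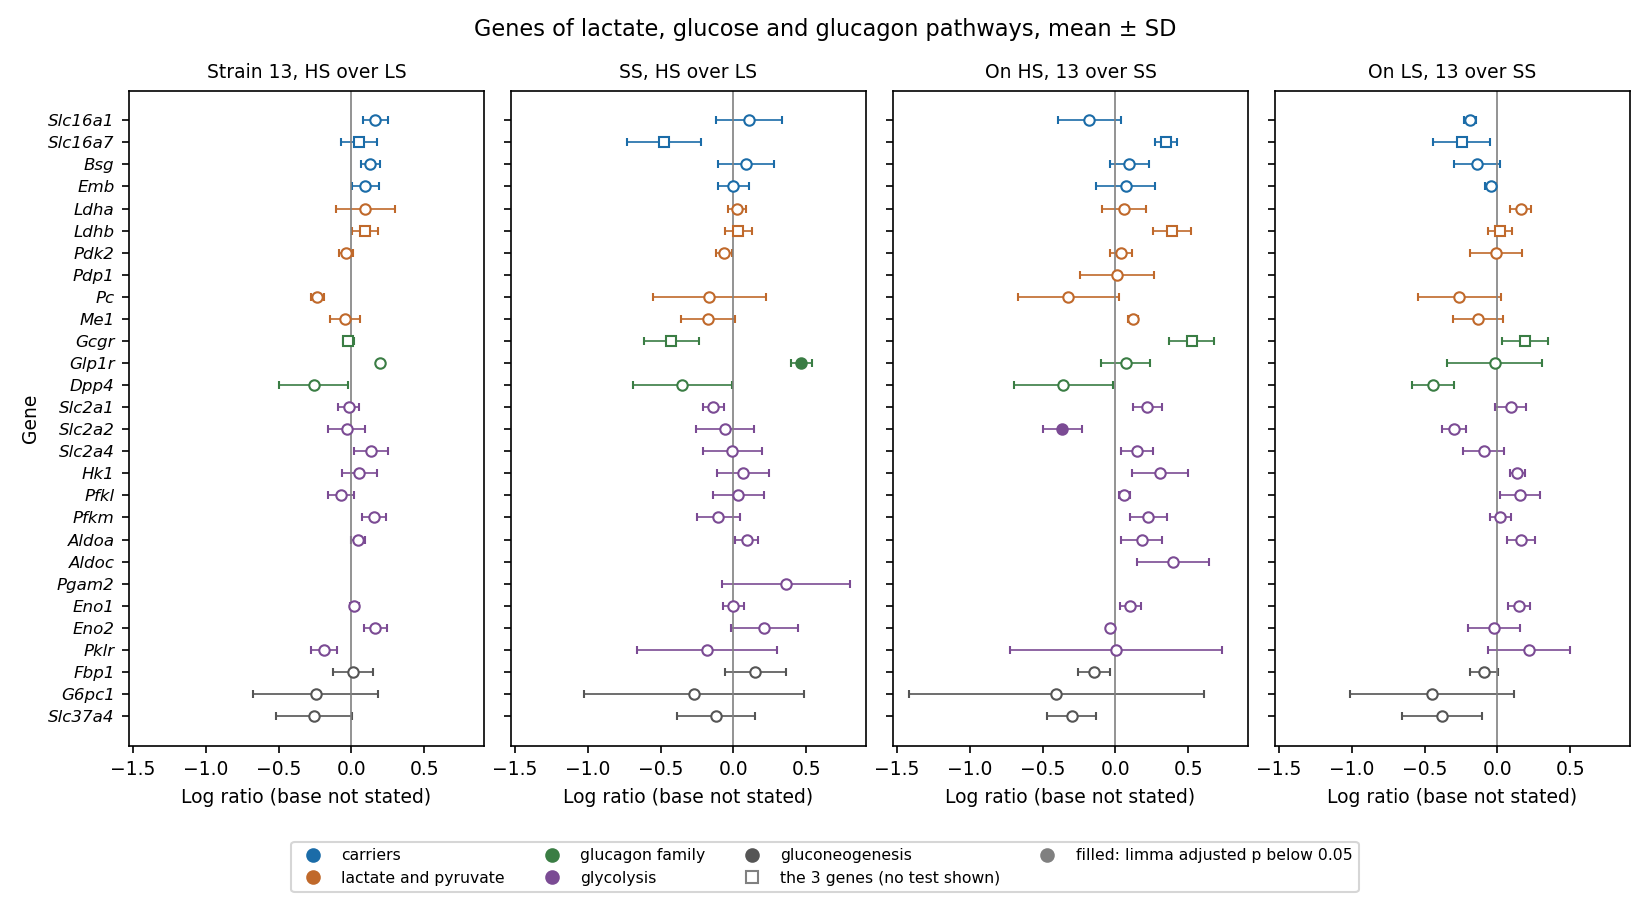
Log ratio (base not stated) on the horizontal axis for genes of lactate, glucose and glucagon biology in the 4 comparisons, as mean ± SD of the replicates, with filled points where limma's adjusted p was below 0.05 and squares for the 3 genes, which carry no test. Glp1r in SS at 0.47 and Slc2a2 on HS at -0.37 are the filled points.

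The genes most like each of the 3 were found by Pearson correlation over the 12 replicate means, among 861 probes with 1 gene symbol and all means. The means share RNAs and are not independent, and they include the values from which the 3 genes were chosen. These correlations thus describe the arrays and carry no p. Slc16a7 was closest to Acat1 (r = 0.94), the mitochondrial acetoacetyl-CoA thiolase, to Egf (r = 0.91), the growth factor precursor of the thick ascending limb and distal tubule, and to Acsl1 (r = 0.89), which activates fatty acids. Ndufa5 (r = 0.87), a subunit of respiratory complex I, and Mdh1 (r = 0.85), cytosolic malate dehydrogenase, followed. Acat1 had mean ratios of 0.02 in strain 13 and -0.19 in SS between the diets, and of 0.19 on HS and -0.11 on LS between the strains, so it changed sides with the diet as Slc16a7 did.

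Gcgr was closest to Bcat2 (r = 0.94), the mitochondrial branched-chain aminotransferase, then to Acsl1 (r = 0.92) and Egf (r = 0.91). Mtarc2 (r = 0.90), a mitochondrial amidoxime reductase, and Atp5f1c (r = 0.90), a subunit of ATP synthase, completed its 5. Acsl1 and Egf were thus among the 5 nearest of both Slc16a7 and Gcgr. Ldhb had other neighbours, namely Amd1 (r = 0.88), which makes a precursor of polyamines, Sult1a1 (r = 0.86), a sulfotransferase, Epor (r = 0.86), the erythropoietin receptor, Gprc5b (r = 0.85), an orphan receptor, and Atp1b1 (r = 0.84), the sodium pump beta subunit. Of these neighbours, Mtarc2 and Atp1b1 lie on the substituted chromosome 13, and its part in their strain ratios was not tested. Among the 3 genes themselves, Slc16a7 and Ldhb had r = 0.78, Slc16a7 and Gcgr r = 0.73, and Ldhb and Gcgr r = 0.62. Of 1005 probes, 27 were closer to Slc16a7 than Ldhb was and 46 were closer to it than Gcgr was. Closer to Ldhb than Gcgr was were 63, so the 3 genes are not one another's nearest. The genes were chosen from values among these means, so nothing is read from the likeness among them.

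Markers of kidney cell types also differed between the RNAs compared. For the thick ascending limb, 3 of 11 listed markers had values (Slc12a1, Umod and Egf), and their mean in SS on HS over LS ranged from -0.30 to -0.21 by replicate, against -0.09 to 0.02 in strain 13. In strain 13 over SS it ranged from 0.17 to 0.24 on HS and from -0.06 to 0.09 on LS. Of the 3, 0 passed in the SS diet comparison and 1 passed on HS, higher in strain 13. The mean of these markers thus lay on the same side of 0 as Gcgr and Slc16a7 in the SS diet comparison and on HS. For the collecting duct, 4 of 11 markers had values, and their mean shared these sides of 0. It ranged from -0.13 to -0.09 in SS between the diets, where 0 of the 4 passed, against -0.04 to 0.16 in strain 13. In strain 13 over SS it ranged from 0.27 to 0.42 on HS and from 0.12 to 0.29 on LS. On HS 3 of the 4 passed, higher in strain 13, beside 3.63% of all 1350 probes. Proximal tubule markers, 9 of 20 with values, had replicate means from -0.35 to 0.23 in SS between the diets, against -0.36 to -0.25 in strain 13. In strain 13 over SS they ran from -0.78 to -0.09 on HS and from -0.43 to -0.15 on LS in the mean of the 8 with every replicate. Of 8 tested on HS, 2 were called lower, beside 2.37% of all 1350 probes, and 0 of 9 were called in SS between the diets. The smooth muscle and fibroblast list, 6 of 8 with values, lay on the other side of 0 in SS. Its means over 5 genes were 0.28 to 0.74 between the diets, against 0.11 to 0.34 in strain 13. In SS 4 of 5 tested were called higher on HS, beside 1.83% of all 1310 probes. On HS the list ran from -0.53 to -0.20 in strain 13 over SS, with 1 of 6 called lower. The part of all these markers in the values of the 3 genes was not tested.

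**Figure D4:**
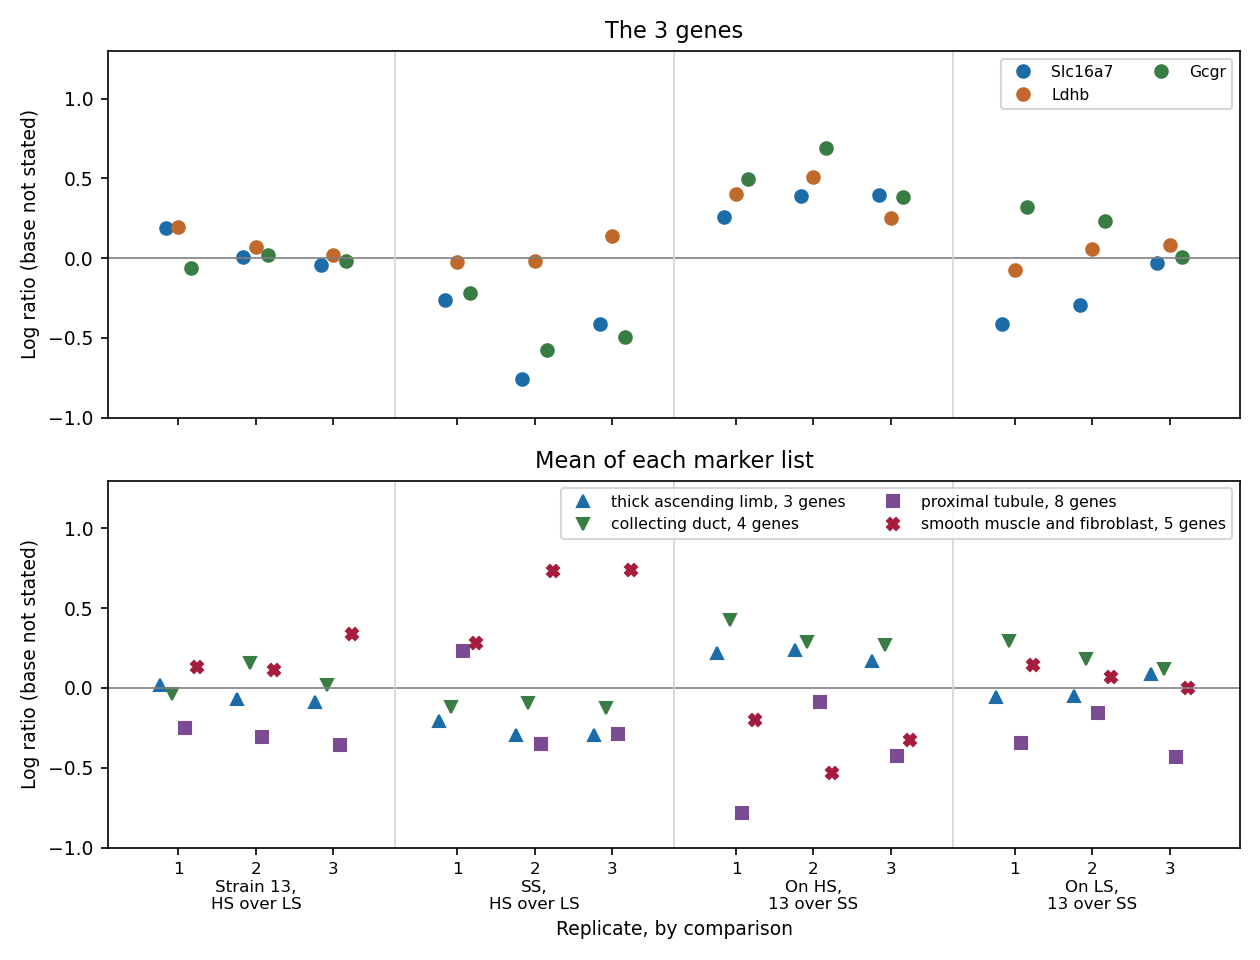
Replicate means of the 3 genes (upper panel) and of 4 marker lists (lower panel), as log ratios with the base not stated, for the 3 replicates of each comparison. In the SS diet comparison Slc16a7, Gcgr and the thick ascending limb and collecting duct lists lie below 0. There the proximal tubule list lies on both sides of 0, and the smooth muscle and fibroblast list lies above it, from 0.28 to 0.74.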

How the data were processed

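The deposited values, 1 series table, are log ratios per probe and array, and no label or header used here states the authors' background correction, filters or normalization. Array means lay within 0.0049 and medians within 0.04 of 0, so the deposited log ratios were used unchanged, and every one of their columns was mapped (24 arrays). The design had assumed a known log base. Of the 1561 probes with values, 1311 had 1 symbol updated through RefSeq (GRCr8), 5 a platform symbol only, 22 several and 223 none. Slc16a7 held values on 22 arrays, Ldhb and Gcgr on 24.

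Forward and dye-swap arrays were averaged per replicate. A title of a strain 13 diet array without a replicate number was taken as the forward array of replicate 1, the only place left. R 4.3.3 with limma 3.58.1 (lmFit, eBayes) fitted the 4 group means to 12 replicate means. Each mean was tested against 0, two-sided, in probes with at least 2 replicates, with Benjamini-Hochberg adjustment at 0.05 over all probes tested. The difference of the salt response averaged both of its estimates, from diet arrays and from strain arrays, within that fit. The fit treated the replicate means as independent, although some comparisons share RNA. It was tested on simulated data with independent noise in every replicate mean and effects in the SS diet comparison alone. How shared deviations bear on the tests was not simulated.

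The members, gene lists and marker lists were chosen with earlier results of these data known. Named genes were the 3 members, all measured genes of the carrier, lactate and pyruvate, and glucagon lists, genes of the other lists that passed or had the 2 lowest p-values on HS, and the 5 probes most like each member. Alternatives were forward or dye-swap arrays alone, each replicate left out, arrays scaled or median-centred, the replicate block, groups fitted alone, complete probes, and 2 doubtful arrays left out. Precision is limited by the 3 replicates of each comparison. Intensities were not used.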

Additional observations from a re-analysis of the deposited data

Results flagged for a closer look

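Across 16 sets of arrays examined, 3 held an array far from the others, where chance flags about 1 in 20 sets. For Ldhb in the SS diet comparison, the forward array of replicate 3 read 0.46, while the other 5 arrays ran from -0.18 to 0.05. For Gcgr in strain 13 over SS on HS, the dye-swap array of replicate 2 read 0.9, while the other 5 ran from 0.37 to 0.54. In the strain comparison on LS, the forward array of replicate 1 held values for 726 probes, against 1099 on the next lowest array. Slc16a7 had a value on it, at -0.3, as had Ldhb at 0.02 and Gcgr at 0.25.

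For Slc16a7 the ratio of strain 13 over SS was above 0 on every HS array and below 0 on every LS array with a value. The forward LS arrays of replicates 2 and 3 lay close to 0, at -0.01 and -0.03. Of probes with at least 5 values, 6.20% of 1193 were above 0 on every HS array. On LS, 5.17% of 948 were below 0 on every array, and the share with both was not counted. The HS mean minus the LS mean was 0.595. This difference was not tested, because the gene was chosen for it.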

How the results depend on the processing

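Slc16a7 in the SS diet comparison (-0.59 to -0.34 with a replicate left out) and Gcgr in the SS diet comparison (-0.54 to -0.36) and on HS (0.44 to 0.59) kept their direction under every alternative. With forward arrays alone and dye-swap arrays alone, Slc16a7 read 0.45 and 0.25 on HS, and Ldhb 0.16 and -0.09 in SS. Dye-swap arrays alone gave -0.56 for Slc16a7 on LS. Without the doubtful SS array, titled in the manner of strain 13, Ldhb in SS read 0.14. Values near 0 turned sign. Gcgr in strain 13 read 0.01 on forward arrays, Slc16a7 in strain 13 -0.02 without replicate 1, and Ldhb in SS -0.02 without replicate 3. Ldhb on LS read -0.13 on dye-swap arrays, -0.01 to 0.068 with a replicate left out, -0.0017 with median-centred arrays and -0.0117 without the LS array with the fewest values, an alternative chosen after seeing the data. The cause was not tested.

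Counts of called probes moved far more. In SS, 37 were called, and 118 on forward arrays, 62 on dye-swap arrays, 0 to 134 with a replicate left out, 60 without the doubtful SS array, 0 with the group fitted alone and 58 over complete probes. In strain 13, 0 were called, and 15 on forward arrays, 3 on dye-swap arrays and 0 to 1 with a replicate left out. On HS, 81 were called, and 127, 411 and 0 to 27 in that order, with 13 at equal array spread, 44 with the replicate block and 0 fitted alone. On LS, 0 were called, and 70, 51 and 0 to 1, with 23 at equal array spread and 35 over complete probes. For the difference of the salt response, 5 were called, and 13, 12 and 0 to 10, with 0 at equal array spread, 12 without the doubtful SS array, 8 with the replicate block, 39 over complete probes and 2 without the sparse LS array.

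Of the pathway lists, 1 gene was called in SS, against 2 on forward arrays, 0 to 3 with a replicate left out, 2 with the replicate block, and 0 fitted alone or over complete probes. The gene called in SS, Glp1r, has 2 replicates on LS and is not among the complete probes, so it could not be called there. On HS 1 was called, against 11 on dye-swap arrays, 3 over complete probes, and 0 with a replicate left out, at equal array spread, with the replicate block or fitted alone. On LS 0 were called, against 2 on dye-swap arrays and 1 at equal array spread. With every replicate mean present, the replicate block cannot move a mean, only its test. The channel names give SS RNA of number 3 to diet and strain arrays, but the numbers tied replicates unevenly across pairs of comparisons. Deviations of same-numbered replicates correlated over 1006 probes at -0.665 to 0.43 in 18 pairs, 6 of them above 0.1 and 6 below -0.1. In 1 pair of comparisons, the diet arrays of both strains, all 3 were above 0.1. For HS over LS in SS paired with strain 13 over SS on HS, all 3 were below -0.1. They read -0.665, -0.593 and -0.29 for replicates 1, 2 and 3. SS RNA on HS enters both of these comparisons, on opposite sides of the ratio. Values of a gene in them are thus not separate readings. Whether the shared RNA gave these deviations was not tested. The tests of Ldhb and Gcgr did not pass with the replicate block either.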

Other observations

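The genes least like the 3, chosen after their values were seen, included genes of matrix and mesenchymal cells. Over the 12 replicate means, Gcgr had r = -0.96 with Col3a1, a fibrillar collagen, -0.94 with Tagln, which binds actin in smooth muscle, and -0.93 with Vim, the filament protein vimentin. Slc16a7 had r = -0.89 with Col1a1, a fibrillar collagen, and -0.91 with Csnk2b, a regulatory subunit of casein kinase. Ldhb had r = -0.82 with Erp29, a chaperone of the endoplasmic reticulum, and -0.81 with Col2a1, another collagen. Col3a1 had mean ratios of 0.34 in strain 13 and 0.82 in SS between the diets, and of -0.43 on HS and 0.09 on LS between the strains. The means share RNAs and include the values from which the 3 genes were chosen, so these correlations are descriptions with no p.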
